A study of Mus musculus with 4 samples.

Results

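The genes described here are 10 that let natural killer (NK) cells sense IL-12, IL-18 and interferons: Il12rb1 and Il12rb2 (the chains of the IL-12 receptor), Il18r1 and Il18rap (the IL-18 receptor), Ifnar1 and Ifnar2 (the type I interferon receptor), Ifngr1 and Ifngr2 (the interferon-γ receptor), and the signaling genes Stat4 and Tyk2. They were chosen by gene symbol from the 35798 genes that the count table names, and all 10 had a row and passed the filter on low counts. RNA was sequenced from 4 libraries of sorted NK cells that carry the receptor Ly49H, which recognizes a protein of murine cytomegalovirus (MCMV). Of these, 2 came from wild-type donors (CD45.1) and 2 from TNFR2 KO donors (CD45.2). Donor cells of both genotypes had been transferred together into NSG mice, the hosts were then infected with MCMV, and the cells were sorted from spleen on day 3.5, each library coming from the pooled spleens of 3 hosts. Every library is therefore from cells that were sorted, as transferred cells, from infected hosts, and no uninfected group is compared here. Donors and hosts were young adult mice according to the study's methods. NSG mice lack T, B and NK cells of their own but keep macrophages, granulocytes and other myeloid cells. Their NOD strain background carries the CD45.1 allele, the same allele on which the wild-type cells were sorted. The genotypes also differed in CD45 allele and in sort gate, so these effects cannot be told apart, and in bulk RNA fewer cells of a type and less RNA per cell cannot be told apart either.

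IL-12, made by dendritic cells and macrophages, binds a receptor of IL12RB1 and IL12RB2, whose associated kinases TYK2 and JAK2 phosphorylate STAT4, and STAT4 then drives interferon-γ expression in NK cells. IL-18 binds IL18R1, recruits the accessory chain IL18RAP and signals through the adaptor MYD88 to NF-κB, and it acts together with IL-12 on NK cells early in viral infection. Type I interferons bind IFNAR1 and IFNAR2, which use TYK2 and JAK1, while interferon-γ binds IFNGR1 and needs the second chain IFNGR2, which carries JAK2, to signal.

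Libraries held between 32713256 and 39543650 counts. Expression is given as CPM, each gene's share of its library's counts on the counts-per-million scale after TMM scaling, a method that assumes most genes do not differ between libraries. Differences are log2-fold changes of TNFR2 KO over wild-type, tested over 13822 genes with edgeR's quasi-likelihood test and Benjamini-Hochberg adjustment. Tnfrsf1b, the targeted gene that encodes TNFR2, measured 264.7 and 268.6 CPM in wild-type and 55.14 and 58.59 CPM in TNFR2 KO, so it was lower in both libraries labelled TNFR2 KO (log2-fold change -2.23; adjusted p = 1.35e-13) but was not absent. For any single value in 2 plus 2 libraries, the smallest two-sided p of an exact permutation test is 0.333. The duplicates come from 1 experiment, so the p-values below compare these pools of mice and do not hold the variation between separate experiments.

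At an adjusted p under 0.05, 6 of the 10 genes were higher in the TNFR2 KO libraries, 1 was lower and 3 did not pass. That is 7 of 10 in either direction, where 50.4% of all tested genes passed. By direction, 24.2% of all tested genes were higher at this threshold and 26.2% were lower. With scaling on NK lineage genes, 0 of the 10 were higher and 8 lower. That scaling put 11292 of the 13822 tested genes past the threshold in either direction, with a median log2-fold change of -0.52 over all genes. Shares of all genes by direction were not computed with it, so these counts are not read as particular to the 10 genes. What follows is with TMM scaling. The higher genes were Ifngr1, Stat4, Il18rap, Ifnar1, Tyk2 and Il12rb1, with log2-fold changes from 0.22 to 0.56, and the lower gene was Ifngr2, at -2.76. Past the limit of 0.5 on the log2 scale lay 2 of the higher genes, Ifngr1 and Stat4, where 5.45% of all tested genes were higher by as much. Past a limit of 1 lay only Ifngr2, and below it, where 11.8% of all tested genes were lower by as much and 1.56% were higher by as much. The median log2-fold change of the 10 genes was 0.24, against 0.00 for all genes tested. Both TNFR2 KO libraries lay above both wild-type libraries for 7 of the genes and below them for 2, where 36.3% and 37.6% of all tested genes did the same.

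**Figure D1:**
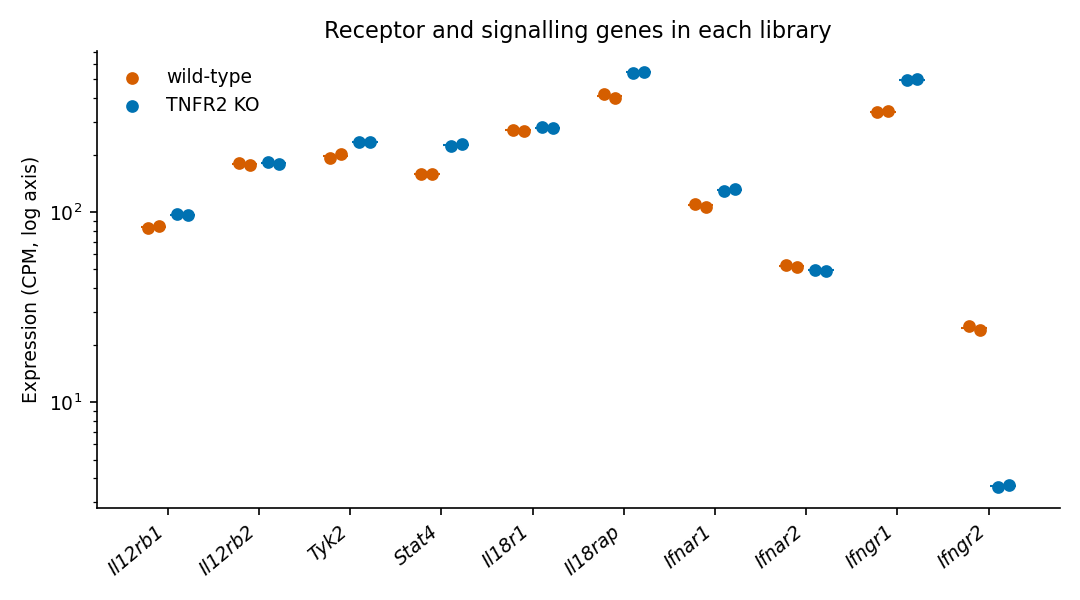
Expression of each gene in the 4 libraries, in CPM on a log axis (points: libraries; short lines: group means; n = 2 per genotype). Ifngr2 lay near 25 CPM in wild-type and under 4 CPM in TNFR2 KO, while the other genes differed by less than 1.5-fold.

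Promoters are shown for the genes whose expression differed most, the opposed pair Ifngr2 and Ifngr1, then Stat4 with both of its annotated starts, and Il18rap. RefSeq promoter windows on GRCm38.p6 matched 9 of the 10 genes (all but Il12rb1), with 12 start sites in all, and the 250 bases before each start were searched on both strands for 5 motifs. These were the interferon-γ activated site TTCNNNGAA bound by STAT dimers, the interferon-stimulated response element (GAAA, any 2 bases, GAAA), the T-box site AGGTGTGA, the PU.1 site GAGGAAGT and a κB site (GGG, any 2 bases, TTTCC). Capitals mark a match, and the strand shown is that of the gene.
Ifngr2 (chr16:91546809-91547058, plus strand): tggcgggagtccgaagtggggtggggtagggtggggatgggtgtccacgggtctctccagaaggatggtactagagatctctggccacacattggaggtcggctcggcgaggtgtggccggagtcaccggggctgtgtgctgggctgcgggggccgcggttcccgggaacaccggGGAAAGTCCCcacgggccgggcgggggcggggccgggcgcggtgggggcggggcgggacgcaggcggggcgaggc
Ifngr1 (chr10:19591699-19591948, plus strand): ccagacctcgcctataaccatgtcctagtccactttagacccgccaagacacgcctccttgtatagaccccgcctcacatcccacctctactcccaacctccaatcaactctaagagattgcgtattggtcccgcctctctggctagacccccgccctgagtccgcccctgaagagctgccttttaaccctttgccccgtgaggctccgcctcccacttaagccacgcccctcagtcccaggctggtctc
Stat4, upstream start (chr1:51986898-51987147, plus strand): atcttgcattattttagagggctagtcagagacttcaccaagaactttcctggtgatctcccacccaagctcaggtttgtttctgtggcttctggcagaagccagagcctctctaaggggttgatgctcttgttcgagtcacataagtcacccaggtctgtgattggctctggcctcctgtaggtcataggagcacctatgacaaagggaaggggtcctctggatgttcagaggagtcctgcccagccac
Stat4, downstream start (chr1:52007990-52008239, plus strand): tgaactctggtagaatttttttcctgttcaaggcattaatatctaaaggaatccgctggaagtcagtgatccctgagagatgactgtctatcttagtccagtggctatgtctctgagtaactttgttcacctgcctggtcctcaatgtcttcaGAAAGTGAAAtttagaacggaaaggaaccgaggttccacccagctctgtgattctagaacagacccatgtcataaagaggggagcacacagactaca
Il18rap (chr1:40515112-40515361, plus strand): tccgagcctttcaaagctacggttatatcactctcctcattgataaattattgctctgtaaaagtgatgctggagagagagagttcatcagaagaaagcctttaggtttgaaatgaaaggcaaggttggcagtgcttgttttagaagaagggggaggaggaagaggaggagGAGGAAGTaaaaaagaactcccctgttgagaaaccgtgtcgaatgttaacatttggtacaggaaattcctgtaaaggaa

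The Ifngr2 window was 74.0% G and C and held a match to the κB letters that begins 75 bases before the start. Only 1.41% of 32851 mouse promoter windows of the same length held such a match. The Ifngr1 window held no match to any of the 5 motifs. Upstream of the second Stat4 start, an interferon-stimulated response element match began 97 bases before the start, a motif found in 2.98% of windows. Il18rap had a PU.1 match 79 bases before its start, against 2.44% of windows. Among the genes not printed, Il12rb2, Ifnar2 and the most downstream start of Il18r1 held matches to the interferon-γ activated site, which occurs in 7.02% of windows, and the T-box letters, found in 1.12%, matched in no window of these genes. No match overlapped another motif's match. A match is a stretch of letters and was not tested as a binding site.

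Among the IL-12 receptor genes, Il12rb1 was slightly higher in the TNFR2 KO libraries and Il12rb2 did not pass the test. Both were lower with scaling on NK lineage genes. Il12rb1 encodes the chain shared with the IL-23 receptor and lies at chr8:70808449-70821424 of GRCm38 (plus strand). Wild-type libraries held 82.4 and 84.39 CPM, and TNFR2 KO libraries 97.49 and 96.89 CPM. The genotypes did not overlap, and the gap was larger than the spread between duplicates. Its log2-fold change was 0.22 (standard error 0.0353; edgeR's adjusted p = 0.000225), a 1.17-fold difference. Il12rb2, the signaling chain that recruits STAT4, lies at chr6:67291318-67376188 (minus strand). It measured 182.7 and 177.6 CPM in wild-type and 184.2 and 179.7 CPM in TNFR2 KO, so that the genotypes overlapped. Its log2-fold change was 0.01 with a 95% interval from -0.05 to 0.08 (edgeR's adjusted p = 0.723). Il12rb2 overlaps the neighboring gene Serbp1 in the annotation, and 38.6% of the 31-base stretches of its transcripts (25.7% for its longest coding transcript) also occur in other genes, Serbp1 the most often. Serbp1 was more abundant than Il12rb2, at 577.3 and 601.4 CPM in wild-type and 545.0 and 522.2 CPM in TNFR2 KO, which leaves the division of reads between them uncertain.

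Stat4 and Tyk2, which pass on the IL-12 signal inside the cell, were both higher in the TNFR2 KO libraries. Scaling on NK lineage genes gave -0.01 for Stat4, which then did not pass the test, and -0.27 for Tyk2. Stat4 lies at chr1:51987148-52107189 (plus strand) and encodes the transcription factor that IL-12 activates. It measured 158.5 and 158.4 CPM in wild-type and 224.3 and 227.5 CPM in TNFR2 KO. The wild-type duplicates were almost equal, with an SD of 0.0764 CPM, and both TNFR2 KO libraries lay far above them. The log2-fold change was 0.51 (standard error 0.0277; edgeR's adjusted p = 1.28e-08), and leaving out any single library gave 0.51 to 0.53. Of all tested genes, 7.5% had a log2-fold change at least as high. Stat4 overlaps Gm28177 in the annotation and shares with other genes 23.7% of the 31-base stretches of its transcripts, and Gm28177 has no row in the count table. Tyk2, the Janus kinase used by the receptors for IL-12 and type I interferon, lies at chr9:21104068-21131243 (minus strand). It measured 192.2 and 202.7 CPM in wild-type and 235.1 and 234.3 CPM in TNFR2 KO. The wild-type duplicates differed by more than the TNFR2 KO duplicates, but the groups did not overlap. The log2-fold change of Tyk2 was 0.25 (standard error 0.0309; edgeR's adjusted p = 2.7e-05).

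For the IL-18 receptor, Il18rap rose and Il18r1 did not pass the test, and with scaling on NK lineage genes both were lower. Il18r1, which encodes the chain that binds IL-18, and Il18rap, which encodes the accessory chain needed to signal, lie side by side on the plus strand, at chr1:40465552-40500854 and chr1:40515362-40551705. Il18r1 measured 271.2 and 267.9 CPM in wild-type and 279.4 and 277.8 CPM in TNFR2 KO. Both TNFR2 KO values were the higher ones, but by little, and the log2-fold change of 0.05 (95% interval -0.01 to 0.10) did not pass the test (edgeR's adjusted p = 0.148). Il18rap measured 418.2 and 397.8 CPM in wild-type and 539.7 and 550.6 CPM in TNFR2 KO. These libraries did not overlap, and the log2-fold change was 0.42 (standard error 0.0284; edgeR's adjusted p = 1.1e-07), a 1.34-fold rise, whereas it was -0.10 with scaling on NK lineage genes. Its TNFR2 KO level was the highest CPM among the 10 genes, a scale that does not allow for transcript length, and its longest coding transcript, of 4.889 kb, is also the longest of the set.

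Of the type I interferon receptor genes, Ifnar1 rose and Ifnar2 did not pass the test, while with scaling on NK lineage genes both were lower. Ifnar1 lies at chr16:91485238-91507441 (plus strand) and encodes the chain that carries TYK2. It measured 110.3 and 106.9 CPM in wild-type and 129.3 and 131.9 CPM in TNFR2 KO. The groups were apart by more than the spread between duplicates, with a log2-fold change of 0.27 (standard error 0.0333; edgeR's adjusted p = 2.96e-05). Ifnar2, at chr16:91372783-91405589 on the same strand, encodes the chain that carries JAK1 and was the second least abundant gene of the set. It measured 52.68 and 51.78 CPM in wild-type and 49.66 and 49.16 CPM in TNFR2 KO. Both TNFR2 KO libraries were slightly below both wild-type libraries, yet the log2-fold change of -0.08 (95% interval -0.18 to 0.02) missed the threshold (edgeR's adjusted p = 0.154). It passed the threshold with library size alone as scaling, with scaling on NK lineage genes and when genes under a mean of 10 CPM were left out, at -0.14, -0.60 and -0.12.

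The interferon-γ receptor genes moved in opposite directions, Ifngr1 up and Ifngr2 down, and Ifngr2 changed more than any other gene of the set. Ifngr1, at chr10:19591949-19610229 (plus strand), encodes the chain that binds interferon-γ. It measured 335.6 and 340.1 CPM in wild-type and 493.9 and 504.4 CPM in TNFR2 KO. These values did not overlap, and the log2-fold change was 0.56 (standard error 0.025; edgeR's adjusted p = 1.87e-09), a 1.48-fold difference that shrank to 0.04 on the log2 scale and no longer passed the test with scaling on NK lineage genes. Ifngr2, at chr16:91547072-91565623 (plus strand), encodes the second chain, without which the receptor does not signal. It measured 25.07 and 24.09 CPM in wild-type and 3.593 and 3.652 CPM in TNFR2 KO. The underlying counts were 951 and 888 in wild-type and 139 and 117 in TNFR2 KO, so the gene was detected in each library. The log2-fold change was -2.76 (standard error 0.0961; edgeR's adjusted p = 1.79e-10), a 6.78-fold difference. Leaving out any single library gave -2.78 to -2.72, and the value was -3.28 with scaling on NK lineage genes. Only 4.23% of all tested genes had a log2-fold change as low. Just 1.86% of the 31-base stretches of its transcripts occur in other genes.

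Most macrophage, granulocyte and basophil markers moved with genotype in the direction of Ifngr2, where 26.2% of all tested genes were lower and 24.2% higher. Other lineages, given under the other observations below, did not all move this way. Of 20 macrophage or monocyte markers, 18 were lower in TNFR2 KO and 2, Ccr2 and Ly6c2, were higher past edgeR's threshold, with none at 0 counts in every library. Their summed level was 3253 to 3308 CPM in wild-type and 1327 to 1343 CPM in TNFR2 KO, and their median log2-fold change was -2.93, with quartiles of -3.24 and -2.77. Without Ccr2 and Ly6c2, left out after their values were seen, the other 18 summed to 2613 to 2637 CPM in wild-type and 343 to 344 CPM in TNFR2 KO. The value for Ifngr2, -2.76, lay beside the upper of these quartiles. All 15 neutrophil or granulocyte precursor markers were lower as well, with summed levels of 1028 to 1046 CPM in wild-type and 103 to 107 CPM in TNFR2 KO, and so were 9 of 10 basophil or mast cell markers, which summed to 1243 to 1248 CPM in wild-type and 27.2 to 28.4 CPM in TNFR2 KO. The remaining marker of that list, the mast cell chymase gene Cma1, was higher in TNFR2 KO, at 71.9 and 73.3 CPM against 21.9 and 23.1 CPM in wild-type, and with it the list summed to 1266 to 1270 CPM and to 100 CPM in each TNFR2 KO library. The 13 NK cell markers in the table were all higher in TNFR2 KO, with summed levels of 16310 to 16393 CPM in wild-type and 29749 to 30005 CPM in TNFR2 KO. The part of these cells in the changes of Ifngr2 and the other receptor genes was not tested.

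Because NK cell genes as a group were higher in TNFR2 KO, the 10 genes were also scaled on a list of 43 NK lineage genes, of which 40 were higher and 2 lower under TMM. With this scaling, the median over all genes was -0.52 on the log2 scale. Relative to that median, Ifngr1 stood at 0.57, Stat4 at 0.51, Il18rap at 0.42, Ifnar1 at 0.27, Tyk2 at 0.25, Il12rb1 at 0.22 and Ifngr2 at -2.76. Subtracting the median undoes the change of scaling, so these are nearly the TMM values again and no separate result. Against the NK lineage genes themselves, Ifngr1 and Stat4 stood at 0.04 and -0.01, and neither passed the test (edgeR's adjusted p = 0.142 and 0.752). Il12rb2 and Il18r1 lagged behind them, at -0.51 and -0.47 (edgeR's adjusted p = 2.88e-08 and 1.51e-08).

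**Figure D2:**
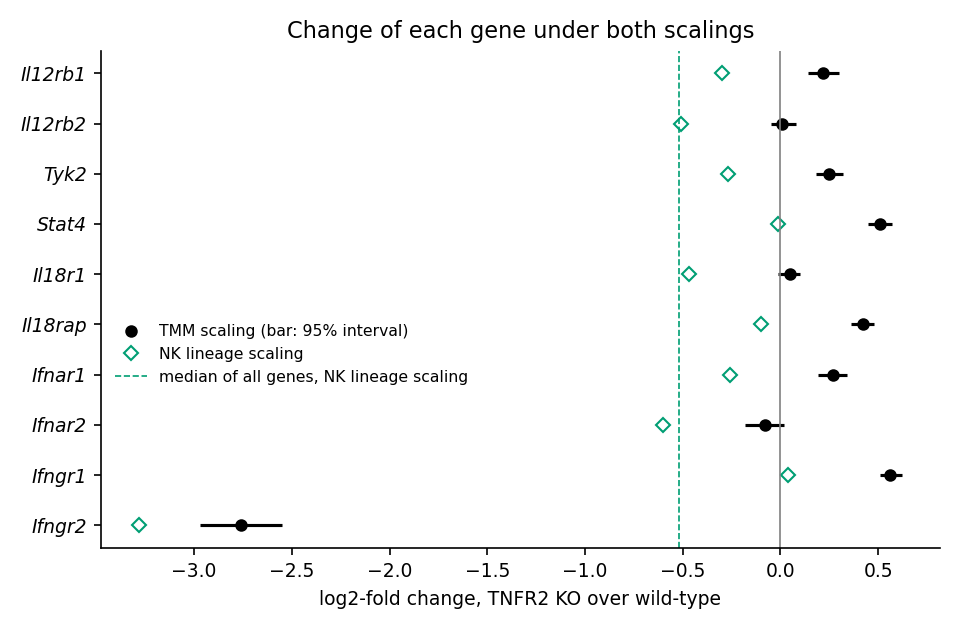
Log2-fold change of each gene (TNFR2 KO over wild-type) with TMM scaling (black points; bars, 95% intervals) and with scaling on NK lineage genes (open diamonds; dashed line, the median of all genes at -0.52). Ifngr2 was lower under both scalings, and the 6 genes above 0 with TMM lay between -0.30 and 0.04 with the other scaling.

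To compare levels between genes, CPM were divided by the length of each gene's longest coding transcript in kb (CPM per kb). Ifngr1 stood highest in both genotypes, at 160 ± 1.51 CPM per kb (SD, n = 2) in wild-type and 236 ± 3.51 CPM per kb in TNFR2 KO. Il18rap followed, at 83.4 ± 2.95 and 112 ± 1.58 CPM per kb. In wild-type the order then ran Il18r1 (64.8 ± 0.547 CPM per kb), Il12rb2 (60.1 ± 1.20), Stat4 (53.1 ± 0.0256), Tyk2 (40.9 ± 1.53), Il12rb1 (29.0 ± 0.490), Ifnar1 (27.8 ± 0.623), Ifnar2 (17.1 ± 0.209) and Ifngr2 (6.63 ± 0.188). In TNFR2 KO, Stat4 passed both Il12rb2 and Il18r1 to stand behind Il18rap, at 75.7 ± 0.757 CPM per kb, and the libraries of Il12rb1 and Ifnar1, at 33.8 and 33.4 CPM per kb on average, overlapped. Ifngr2 stood last in TNFR2 KO at 0.977 ± 0.0112 CPM per kb. With the mean length of all coding transcripts in place of the longest, Il18r1 moved ahead of Il18rap in wild-type and of Stat4 in TNFR2 KO, and Ifnar1 moved ahead of Il12rb1 in both, since these genes have shorter annotated transcripts as well.

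Within a receptor, the ratio of the chains in the same library does not depend on how libraries are scaled. The ratio of Ifngr1 to Ifngr2 per kb was 23.5 and 24.8 in wild-type and 241 and 242 in TNFR2 KO. Ifngr1 was thus the more abundant chain in every library, by a factor that was 3.33 higher in TNFR2 KO on the log2 scale. The genotypes from the same spleen pool differed by 3.36 in pool 1 and 3.29 in pool 2 on that scale. The ratio of Il18rap to Il18r1 was 1.31 and 1.26 in wild-type and 1.64 and 1.69 in TNFR2 KO, a 1.29-fold difference. That of Ifnar1 to Ifnar2 was 1.63 and 1.61 in wild-type and 2.03 and 2.09 in TNFR2 KO. For Il12rb1 to Il12rb2 it was 0.471 and 0.496 in wild-type and 0.552 and 0.563 in TNFR2 KO. By the longest coding transcripts, this was the one ratio below 1. By mean coding length, wild-type Il18rap (83.4 CPM per kb) also stood below Il18r1 (107 CPM per kb). The reads of Il12rb2 are also uncertain because of the stretches shared with Serbp1. With the chains in this order, the TNFR2 KO libraries lay above the wild-type libraries in both pools for all 4 receptors. The order sets that direction, and a ratio taken the other way round would lie below. For IL-18 the plan had put Il18r1 first and the order was turned, so the shared direction is no separate result. Each two-sided exact permutation test gave p = 0.333, the smallest that 2 libraries against 2 allow.

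**Figure D3:**
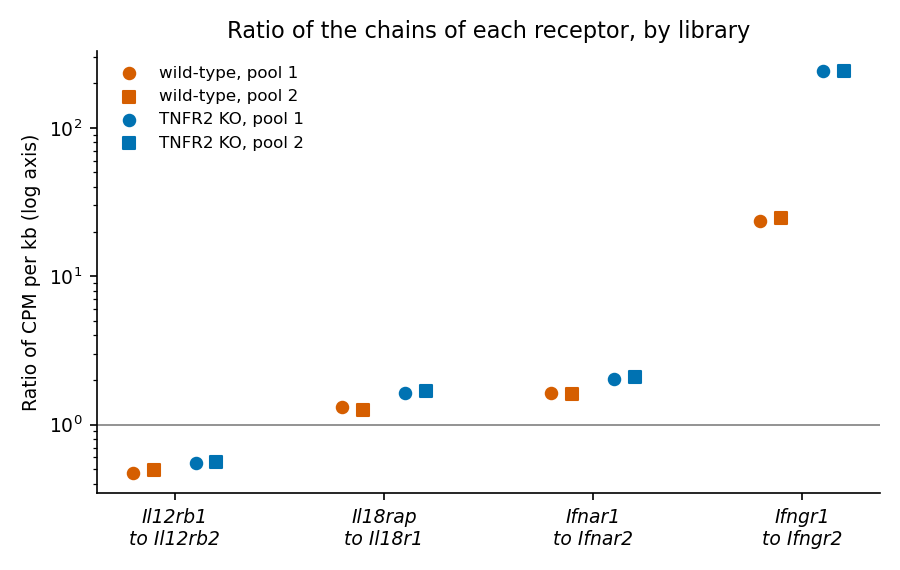
Ratio of the chains of each receptor in CPM per kb (log axis; circles, spleen pool 1; squares, pool 2; grey line, a ratio of 1). The Ifngr1 to Ifngr2 ratio was near 24 in wild-type and near 241 in TNFR2 KO, and the other 3 ratios differed by 1.15-fold to 1.29-fold.

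Several of the genes are neighbors in the genome, but genes side by side had unlike log2-fold changes. Ifnar2, Il10rb, Ifnar1 and Ifngr2 form a cluster of cytokine receptor genes on chromosome 16, in that order on the plus strand. Il10rb, which encodes a chain of the IL-10 receptor, rose from 66.31 and 62.66 CPM in wild-type to 87.38 and 89.83 CPM in TNFR2 KO (log2-fold change 0.46; edgeR's adjusted p = 1.55e-06), a sign that turned with scaling on NK lineage genes. Its neighbors Ifnar2 and Ifnar1 stood at -0.08 and 0.27, and Ifngr2 at the end of the cluster at -2.76. Beyond Ifngr2, the protein-coding genes tested that lie within 100 kb were Tmem50b, Dnajc28, Gart and Son, named for their position, with log2-fold changes of -0.39, -0.15, -0.36 and 0.10. On chromosome 1, the IL-18 receptor genes are preceded by Il1rl2 and Il1rl1, which encode receptors of the IL-1 family. These had log2-fold changes of -0.45 and -0.44 and were lower past edgeR's threshold, in contrast to Il18r1 and Il18rap beside them.

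**Figure D4:**
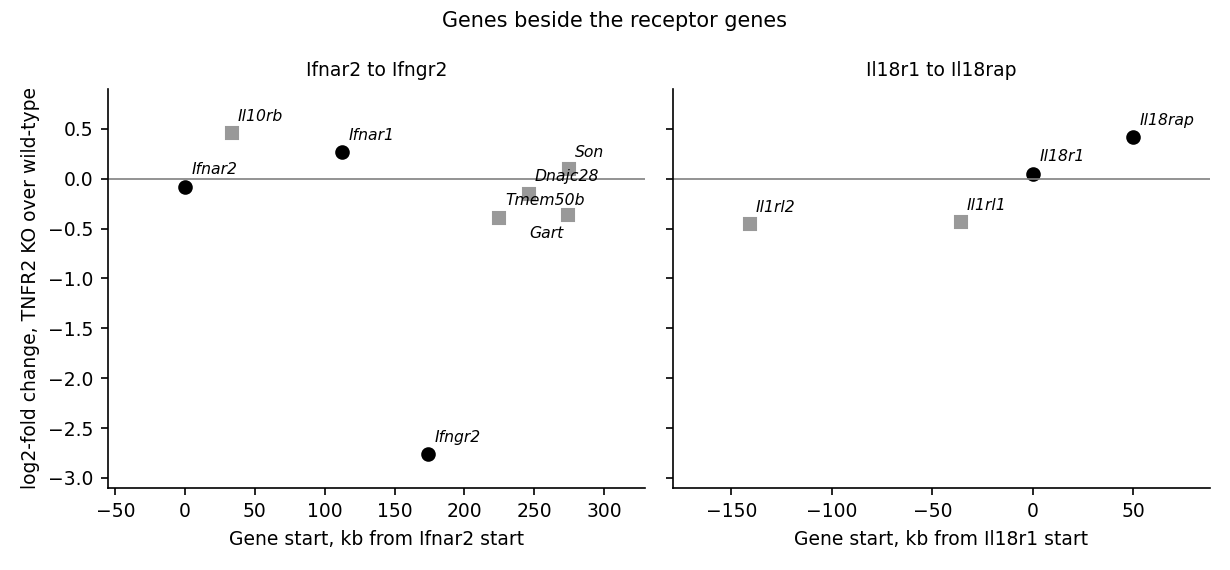
Log2-fold change of tested protein-coding genes (TNFR2 KO over wild-type, TMM scaling) against the distance of their start, in kb, from the start of Ifnar2 (left) or Il18r1 (right; black circles, genes of the set; grey squares, neighbors that lie at least in part within 100 kb). Ifngr2, at -2.76, lay far below its neighbors, which ranged from -0.39 to 0.46.

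Other genes of the same pathways were taken from 8 hand-written lists. Of 148 genes listed, 125 could be tested, and 32 of these were higher and 66 lower in TNFR2 KO past edgeR's threshold. Of all tested genes, 24.2% were higher and 26.2% lower. With scaling on NK lineage genes, 6 of the listed genes were higher and 112 lower, where 11292 of all 13822 tested genes passed in either direction. Shares of all genes by direction were not computed with that scaling. Of the ligands and soluble inhibitors, 4 of 6 tested genes were lower, all by more than 1 on the log2 scale, and 0 were higher by edgeR, by DESeq2 or at an unadjusted p under 0.05 in edgeR. The gene with the smallest adjusted p was Il18bp, which encodes the soluble IL-18 binding protein that keeps IL-18 from its receptor, at 49.2 and 47.22 CPM in wild-type and 7.575 and 7.491 CPM in TNFR2 KO (log2-fold change -2.68; edgeR's adjusted p = 5e-12). Il18 itself, named after its values were seen, measured 11.5 and 11.8 CPM in wild-type and 2.09 and 1.75 CPM in TNFR2 KO. The 20 macrophage or monocyte markers, 18 lower and 2 higher, had a median log2-fold change of -2.93. The part of those cells in the lower ligand and inhibitor genes was not tested. Ifng, the interferon-γ gene and likewise named after its values were seen, measured 187 and 188 CPM in wild-type and 191 and 189 CPM in TNFR2 KO, with a log2-fold change of 0.02 that did not pass the test (edgeR's adjusted p = 0.601). Il12b was at most 0.109 CPM in each library, and 16 of the 25 genes listed, all of them type I interferons, had 0 counts in the 4 libraries. Those ligands are made by other cells, and a count of 0 in sorted NK cells says nothing of their level in the spleen.

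Among 10 kinases and STATs, 4 were higher and 5 lower in TNFR2 KO, where 24.2% and 26.2% of all tested genes were. No list was tested against these shares. All 10 kinases and STATs were lower with scaling on NK lineage genes. With that scaling, 11292 of the 13822 tested genes passed the threshold in either direction, and the median over all genes was -0.52. Jak1, the kinase of both interferon receptors, rose from 808.3 and 796.2 CPM to 1046 and 1071 CPM (log2-fold change 0.40; edgeR's adjusted p = 2.33e-08), a change close to that of Il18rap. Jak2, the kinase shared by the IL-12 and interferon-γ receptors, and Stat2, a transcription factor activated by type I interferon, were named after their values were seen and had log2-fold changes of -0.19 and -0.63. Of the 14 adaptors downstream of the IL-18 receptor, 5 were higher and 1 lower, the latter being Myd88, at 177.5 and 178.0 CPM in wild-type and 153.9 and 155.7 CPM in TNFR2 KO (log2-fold change -0.20; edgeR's adjusted p = 8.94e-05). Irak4, the kinase that MYD88 recruits, had the smallest adjusted p among the higher ones (log2-fold change 0.25), and with scaling on NK lineage genes all 14 adaptors were lower. Of 9 tested chains of related receptors, 4 were higher and 3 lower, the counts being 0 and 7 with that scaling.

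Of 16 feedback inhibitors, 7 were lower and 3 higher in TNFR2 KO, where 26.2% and 24.2% of all tested genes were. Isg15, an interferon-induced ubiquitin-like protein that is also on the type I interferon list, fell from 79.39 and 83.6 CPM to 39.73 and 38.11 CPM (log2-fold change -1.06; edgeR's adjusted p = 1.46e-09), while Usp18 did not pass the test (log2-fold change -0.06; edgeR's adjusted p = 0.278). Pias3, an inhibitor of STAT3, rose to a log2-fold change of 0.41, and 0 of the list were higher with scaling on NK lineage genes. Of 22 genes that IL-12 and IL-18 are known to induce or regulate in NK cells, 13 were higher and 4 lower, against 6 higher and 12 lower with scaling on NK lineage genes. Named for their overlap, Tbx21, Eomes, Gzmb and Prf1 are also NK cell markers, and Tbx21, Eomes, Nfil3 and Runx3 are among the scaling genes. Both counts thus partly restate the shift of NK cell genes, and a response to IL-12 or IL-18 was not tested. Gzmb, which encodes granzyme B, rose from 3894 and 3859 CPM to 6589 and 6491 CPM (log2-fold change 0.76; edgeR's adjusted p = 3.07e-12). Furin, a protease gene that STAT4 is known to induce in T cells, fell from 799 and 819.7 CPM to 526.8 and 526.7 CPM (log2-fold change -0.62).

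Interferon targets were mostly lower in the TNFR2 KO libraries, where 26.2% of all tested genes were lower and 24.2% higher. Scaling on NK lineage genes lowers log2-fold changes throughout, with a median of -0.52 over all genes. It is therefore no separate test of genes that were already lower with TMM scaling. Of 33 tested type I interferon targets, 26 were lower and 3 higher, with a median log2-fold change of -0.66, and with scaling on NK lineage genes all 33 were lower. Oasl2, an oligoadenylate synthetase-like gene, fell from 122.3 and 118.6 CPM to 24.02 and 26.13 CPM (log2-fold change -2.27; edgeR's adjusted p = 1.44e-12). Samd9l, the higher gene with the smallest adjusted p, measured 209.7 and 204.0 CPM in wild-type and 232.4 and 233.3 CPM in TNFR2 KO and turned lower with that scaling. Of 24 tested type II interferon targets, 21 were lower and 2 higher, with a median of -0.60, and 23 were lower and 1 higher with scaling on NK lineage genes. Gbp2, a guanylate-binding protein gene, fell from 829.0 and 813.1 CPM to 224.4 and 220.9 CPM (log2-fold change -1.88; edgeR's adjusted p = 3.48e-14). Irf8, which also stands on the list of IL-12 and IL-18 targets, rose from 386.2 and 396.9 CPM to 589.4 and 596.4 CPM (log2-fold change 0.60; edgeR's adjusted p = 1.08e-09). Many of these targets are also expressed by macrophages, whose markers moved in the same direction with the levels given above, and the part of those cells was not tested.

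**Figure D5:**
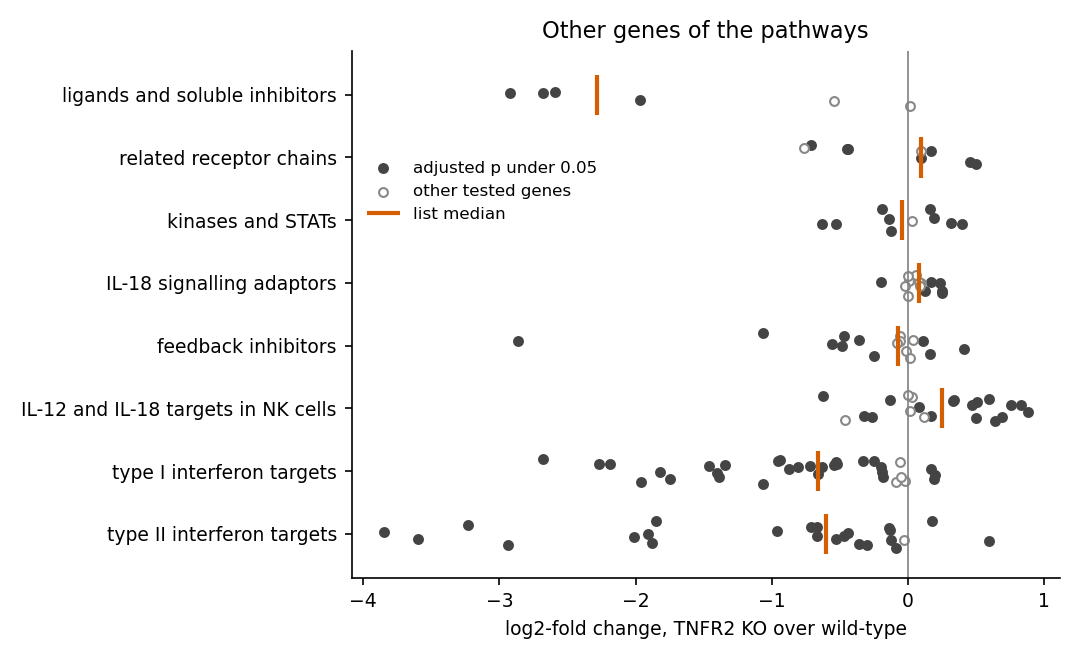
Log2-fold change of the tested genes of 8 pathway lists (TNFR2 KO over wild-type, TMM scaling; filled points, past edgeR's threshold of 0.05 on the adjusted p; orange bars, list medians). The interferon target lists had medians of -0.66 and -0.60, and the IL-12 and IL-18 target list had a median of 0.25 that rests on TMM scaling.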

How the data were processed

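Ly49H+ NK cells of 2 wild-type and 2 TNFR2 KO libraries were sequenced as poly-A selected, stranded, paired-end libraries. Per the labels and the study's methods, the authors trimmed reads with Trimmomatic, assigned them to mm10 transcripts with kallisto 0.46.1 and summed them per gene with Tximport, and they deposited the expected counts without scaling. Which transcript annotation was used is not given in these sources. A row without a gene name, with 0.0559% to 0.0728% of the counts, was left out. Counts were rounded, filtered with filterByExpr, scaled with TMM and tested with edgeR 4.0.16 in R 4.3.3 (quasi-likelihood test, genotype as the only term, adjusted p under 0.05). The steps were tested on simulated counts. Named genes were the 10 genes, Tnfrsf1b and the gene of smallest adjusted p in each direction of each pathway list, other names being marked in the text. A gene that the rule names is not reported here. Members and lists were chosen with earlier results of these data known. Positions, lengths and shared 31-base stretches came from GENCODE M21 on GRCm38, which stands in for the authors' annotation, and promoters from RefSeq. Totals of 32713256 to 39543650 counts per library limit precision most for genes under 10 CPM.

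Scaling was varied (size factors of DESeq2, upper quartile, library size alone, NK lineage genes), as were the test (DESeq2 1.42.0) and the filter (none, or a mean of 10 CPM), and the replicate block and each library left out were tried. Same-numbered libraries came from the same spleen pool per the labels, which pairs them. The correlation of their deviations from the group means was 0.024 across genes. SciPy 1.17.1 under Python 3.11.15 gave the permutation tests, and matplotlib 3.10.9 the plots.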

Additional observations from a re-analysis of the deposited data

How the results depend on the processing

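Scaling on NK lineage genes changed most results: the median over all genes became -0.52 on the log2 scale, and the number of genes past edgeR's threshold went from 6965 to 11292. Under it 0 of the 10 genes were higher and 8 lower, and 6 pathway genes were higher and 112 lower. The log2-fold changes that turned sign with it were -0.30 for Il12rb1, -0.51 for Il12rb2, -0.47 for Il18r1, -0.10 for Il18rap, -0.01 for Stat4, -0.27 for Tyk2, -0.26 for Ifnar1, -0.06 for Il10rb, -0.27 for Irak4, -0.12 for Jak1, -0.11 for Pias3 and -0.35 for Samd9l, as its construction subtracts the change of the NK lineage genes. With library size alone, Il12rb2 and Il18r1 turned to -0.05 and -0.01, and with genes under a mean of 10 CPM left out Il12rb2 turned to -0.02. Both of these alternatives called 2 of the 10 genes lower, as Ifnar2 then passed the threshold. The cause was not tested. DESeq2, DESeq2's size factors, upper-quartile factors, no filter and each library left out in turn gave 6 higher genes and 1 lower gene of the 10. Of 120 alternative values for the 10 genes, 106 kept their sign and their side of the threshold. With the replicate block, which pairs libraries by spleen pool, 6 genes were higher and 1 lower, and 32 pathway genes were higher and 66 lower, so no such count moved. Genes under 10 CPM, such as Ifngr2 in TNFR2 KO, rest on the fewest counts.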

Other observations

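Marker lists of other lineages that the results above do not use also differed between the genotypes. Over all tested genes, 26.2% were lower and 24.2% higher. Of 10 tested dendritic cell or class II genes, 6 were lower in TNFR2 KO past edgeR's threshold of 0.05 on the adjusted p and the other 4 did not pass it, with summed levels of 1722 to 1760 CPM in wild-type and 150 to 151 CPM in TNFR2 KO. All 8 erythroid markers were lower, with sums of 263 to 269 CPM and 54.0 to 56.5 CPM. T cell markers, 6 of 9 lower and 1 higher, summed to 960 to 961 CPM in wild-type and 787 to 793 CPM in TNFR2 KO. B cell markers, with 1 higher and 1 lower among 2 tested, were low in all libraries, at 14.9 to 15.7 CPM and 24.6 to 25.6 CPM in sum, and stromal or endothelial markers, 3 of 6 lower and 1 higher, summed to 111 to 116 CPM and 135 to 137 CPM.

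Ccr2 and Ly6c2, the 2 genes of the macrophage or monocyte list that were higher in TNFR2 KO, had log2-fold changes of 0.78 and 0.26. Both are also expressed by NK cells. Csf1r, Adgre1 and Mertk of the same list, named after their values were seen, had log2-fold changes of -3.24, -3.36 and -3.67.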
